A study of Mus musculus with 10 samples.

Results

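The 10 genes described here encode transcription factors of mesenchymal cells, in 5 pairs of paralogs: *Twist1* and *Twist2*, *Snai1* and *Snai2*, *Zeb1* and *Zeb2*, *Prrx1* and *Prrx2*, and *Foxc1* and *Foxc2*. They were chosen by symbol, and all 10 were found among the 26888 genes of the expression table. All 10 passed the filter on low values that 16933 genes passed, a value above 0.5 RPM, the unit of read number scaled to the reads on genes of each library, in at least 1 library. RNA-seq was performed on OP9, a stromal line labelled as coming from foetal calvaria of the strain (C57BL/6xC3H)F2-op/op, whose osteopetrotic mutation removes functional M-CSF. OP9 cells are used as a feeder layer for maturing hematopoietic stem cells, and the comparison asked how reaggregation alters their transcriptome. The 6 reaggregates were made from trypsin-dispersed cells that were pelleted and kept for 48 h on 0.8 µm nitrocellulose filters where medium meets gas, and the 4 flat cultures were grown submersed. The authors' methods describe dissociation of the reaggregates with collagenase and dispase before RNA extraction, and no such step for flat cultures. IL-3 was added to reaggregates 2, 4 and 6, at a dose labelled as 200 µg/µl, and not to reaggregates 1, 3 and 5 or to the flat cultures. The labels name the de Bruijn group as the source of flat cultures 2 and 4, whereas flat cultures 1 and 3, called the other flat cultures here, and the reaggregates carried no label of source. The authors' methods name the Medvinsky and de Bruijn groups as keepers of the cells grown flat, without assigning them to single cultures.

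TWIST proteins are basic helix-loop-helix factors that bind E-box sequences with E-protein partners and are held in check by ID proteins. SNAIL and ZEB proteins are zinc finger repressors that bind E-boxes of epithelial genes such as *Cdh1*, the gene of E-cadherin, and recruit corepressors in epithelial-mesenchymal transition. PRRX homeobox and FOXC forkhead factors pattern the mesenchyme of the skull and limbs, and FOXC1 also maintains the stromal cells of the marrow niche.

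Depth, estimated by taking the commonest RPM value above 0 as 1 read, was 7.35 to 9.43 M reads. A floor of 3 reads then corresponded to between 0.318 and 0.408 RPM, which covers counting error only. The lowest value of any of the 10 genes in any library, 6.91 RPM for *Twist2* in reaggregate 6, was above that floor. Reaggregates 1 and 2, 3 and 4, and 5 and 6 resembled each other more than other reaggregates did. Over the 10 genes, the root mean square log2 difference was 0.13 to 0.18 within these 3 pairs, whereas the remaining 12 pairs of reaggregates gave 0.20 to 0.54. For genes at 200 to 1000 RPM the mean chi-square per gene was 6.51 to 36.3 within the 3 pairs and 83.5 to 270 in the remaining 12. The main fit took the 6 libraries as separate, and results with each consecutive pair averaged are given beside it. The labels do not say that libraries came from separate cultures, so p-values measure only the spread between these samples, which may be technical.

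In reaggregates *Prrx2* rose, the only gene of the 10 called, and none fell, but with consecutive reaggregates averaged none of the 10 was called. A gene was called where its fold change reached 2 and its adjusted p (Benjamini-Hochberg) was no higher than 0.05 in limma on log2(RPM + 0.5), a scale on which the change of low genes is understated. Calls upward covered 7.32% of the 16933 genes tested and calls downward 6.53%. The adjusted p alone was met by 4 of the 10 genes, *Prrx1*, *Prrx2*, *Foxc1* and *Zeb2*, beside 29.3% of all genes tested. Reaggregates and flat cultures did not overlap for *Prrx1* and *Prrx2*, as for 19.1% of all genes tested. The median log2 difference of the 10 genes was -0.02, and that of all genes tested was 0.04. In bulk RNA, fewer cells that express a gene and less of its RNA per cell cannot be told apart.

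*Prrx2* encodes a paired-related homeobox factor and spans chr2:30690492-30736761 on the plus strand of build NCBIM37. Its level in reaggregates was lowest at 134 RPM, with a median of 162.5 RPM and a highest value of 170 RPM. In flat cultures 1 to 4 it was 96.0, 47.7, 105 and 54.4 RPM. Every reaggregate lay above every flat culture, and the de Bruijn cultures were the lowest of all 10 libraries. Reaggregates had a mean of 156.5 ± 13.9 RPM (SD, n = 6), and flat cultures a mean of 75.8 ± 28.9 RPM (SD, n = 4). The log2 fold change of *Prrx2* was 1.12 (SE 0.22, limma adjusted p = 0.00424), and the exact two-sided permutation test over 210 splits gave p = 0.00476, the smallest it can give. These splits took the 6 reaggregates as separate, despite the closeness of consecutive ones. The call was lost through the fold change without flat culture 2 (log2 fold change 0.93, adjusted p = 0.0104), without flat culture 4 (0.99, adjusted p = 0.0171) and against the other flat cultures alone (0.63, adjusted p = 0.0117). It was lost through the adjusted p with consecutive reaggregates averaged to 3 samples (1.12, adjusted p = 0.0713), where 1.84% of all genes tested were called up. Against the other flat cultures alone 3.70% of all genes tested were called up.

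*Prrx1*, the paralog of *Prrx2*, marks limb and calvarial mesenchyme and lies on the minus strand at chr1:165175247-165243841. Its level was between 786 and 990 RPM in reaggregates, with a median of 877.5 RPM. Flat cultures 1 to 4 held 565, 360, 784 and 331 RPM. The groups did not overlap, but flat culture 3 lay just under the lowest reaggregate, and the de Bruijn cultures were again the lowest. The log2 fold change of *Prrx1* was 0.89 (SE 0.23, limma adjusted p = 0.0154; exact permutation p = 0.00476), a fold of 1.85 that missed the limit for a call. Without flat culture 3 *Prrx1* was called (log2 fold change 1.12, adjusted p = 0.00107), as were 12.5% of all genes tested upward, and without flat culture 4 its adjusted p was 0.0532. With consecutive reaggregates averaged its adjusted p was 0.133. Against the de Bruijn cultures alone, where calls upward covered 15.2% of all genes tested, *Prrx1* was called (1.36, adjusted p = 6.44e-05), while against the other flat cultures alone the difference was 0.42 (adjusted p = 0.123).

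Per kilobase of exon, the log2 ratio of *Prrx1* to *Prrx2* was 0.00 ± 0.14 (SD, n = 6) in reaggregates and 0.24 ± 0.19 (SD, n = 4) in flat cultures, with overlapping groups. With the longest transcript as length, the log2 ratio per kilobase Prrx1/Prrx2 was 0.32 in reaggregates and 0.56 in flat cultures, so the balance of the pair depended on the length used. A ratio within a library does not depend on how that library was scaled. The genes whose centred log2 profile over the 10 libraries was nearest to that of *Prrx2*, among 11661 candidates with a mean of at least 5 RPM, were *RP23-14F5.4*, *A2ld1* and *Ccdc22*, at root mean square log2 differences of 0.10, 0.10 and 0.10.

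The promoters of *Prrx1* and *Prrx2* are shown because the pair was higher in every reaggregate than in every flat culture, and that of *Snai1* because it holds an E-box. Sequences are from RefSeq, build GRCm38.p6, 250 bases before to 50 after the start of the gene, on the strand of the gene, and 7 of the 10 genes had an entry. CAGGTG and its reverse complement CACCTG, the E-box bound by SNAIL and ZEB factors, are in capitals. Of these 7 genes only *Snai1* held it, beginning 126 bases before the start, and of all 32851 promoters of this length 20.2% held it. The windows were chr1:163313601-163313900 for *Prrx1*, on the minus strand, chr2:30845117-30845416 for *Prrx2* and chr2:167537945-167538244 for *Snai1*, both on the plus strand. The *Prrx2* window was found once on chromosome 2 of NCBIM37, at chr2:30700637-30700936, which is inside the gene model and not at its first base. A match is a description of letters and not a site of binding.
Prrx1: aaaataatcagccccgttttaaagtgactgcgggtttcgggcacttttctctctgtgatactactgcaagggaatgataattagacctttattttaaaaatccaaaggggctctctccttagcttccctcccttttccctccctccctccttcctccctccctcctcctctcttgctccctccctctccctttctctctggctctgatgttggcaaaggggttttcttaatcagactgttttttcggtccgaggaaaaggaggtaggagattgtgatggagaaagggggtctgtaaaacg
Prrx2: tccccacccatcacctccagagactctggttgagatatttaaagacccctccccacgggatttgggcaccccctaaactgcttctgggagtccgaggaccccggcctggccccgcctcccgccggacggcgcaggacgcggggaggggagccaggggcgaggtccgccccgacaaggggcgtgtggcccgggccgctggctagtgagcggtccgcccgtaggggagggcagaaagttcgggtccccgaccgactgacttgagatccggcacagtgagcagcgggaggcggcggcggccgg
Snai1: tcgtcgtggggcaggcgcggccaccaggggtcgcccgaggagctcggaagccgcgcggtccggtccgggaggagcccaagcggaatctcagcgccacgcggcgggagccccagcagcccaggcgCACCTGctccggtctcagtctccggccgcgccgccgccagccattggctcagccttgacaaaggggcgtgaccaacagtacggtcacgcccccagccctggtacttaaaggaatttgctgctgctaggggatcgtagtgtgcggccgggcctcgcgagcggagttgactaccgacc

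*Foxc1* encodes a forkhead factor needed for the skull and for the marrow niche, and lies at chr13:31898515-31902504 on the plus strand. In reaggregates it was between 126 and 169 RPM, with a median of 151 RPM, and flat cultures 1 to 4 held 84.4, 94.1, 148 and 62.0 RPM. Reaggregates were higher on average, but flat culture 3 lay among them. The log2 fold change of *Foxc1* was 0.67 (SE 0.21, limma adjusted p = 0.0324; exact permutation p = 0.0143), a fold of 1.59 that missed the limit for a call. Its adjusted p was above 0.05 without reaggregate 1, 2 or 5 or flat culture 1, 2 or 4, and lay between 0.00169 and 0.102 when any 1 library was left out. It was also above 0.05 without the filter on low values (0.0611), with the replicate block (0.0935) and with consecutive reaggregates averaged (0.180), where the log2 difference was 0.67, 0.66 and 0.67, and against the other flat cultures alone (log2 difference 0.40, adjusted p = 0.213).

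*Foxc2*, the paralog needed for lymphatic and skeletal development, lies at chr8:123640071-123642792 on the plus strand. Its level was between 14.1 and 19.5 RPM in reaggregates, with a median of 16.4 RPM, and 11.4, 57.8, 19.8 and 40.7 RPM in flat cultures 1 to 4. Both de Bruijn cultures were above every other library, and flat culture 1 was the lowest. The log2 difference between reaggregates and flat cultures was -0.68 (SE 0.36, limma adjusted p = 0.170), and without flat culture 2 it was -0.32 (adjusted p = 0.469). *Foxc2* was called down without flat culture 1 (log2 fold change -1.09, adjusted p = 0.0208) and against the de Bruijn cultures alone (-1.51, adjusted p = 0.000156), where calls downward covered 10.5% of all genes tested, while the difference from the other flat cultures alone was 0.15 (adjusted p = 0.668). The log2 ratio of *Foxc1* to *Foxc2* per kilobase was 2.59 ± 0.32 (SD, n = 6) in reaggregates, 0.15 and 0.06 in flat cultures 2 and 4, and 2.34 and 2.35 in flat cultures 1 and 3.

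*Zeb1* and *Zeb2* are zinc finger and homeobox repressors of epithelial genes, at chr18:5591858-5775465 on the plus strand and chr2:44839154-44972915 on the minus strand. *Zeb2* was between 59.3 and 95.4 RPM in reaggregates, with a median of 83.85 RPM, and 93.0, 110, 150 and 117 RPM in flat cultures 1 to 4. Only reaggregate 6 exceeded the lowest flat culture. The log2 difference of *Zeb2* was -0.55 (SE 0.17, limma adjusted p = 0.0334; exact permutation p = 0.00952), a fold of 1.46 that missed the limit for a call. Its adjusted p was above 0.05 without reaggregate 1, 2, 3 or 4 or flat culture 2, 3 or 4, with a highest value of 0.0791, and it was 0.164 with consecutive reaggregates averaged, 0.0807 with the replicate block and 0.104 against the other flat cultures alone, where the log2 difference was -0.55, -0.64 and -0.57. Against the de Bruijn cultures alone it was -0.52 (adjusted p = 0.0338). With only the reaggregates with IL-3, or only those without it, the adjusted p was above 0.05 for *Prrx1*, *Prrx2*, *Foxc1* and *Zeb2* alike. Exons of *Zeb2* overlap those of the antisense transcript *Gm13476*, and the library kit does not mark strand, so reads shared by the overlap cannot be told apart.

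*Zeb1* was at 83.0 to 110 RPM in reaggregates, with a median of 89.5 RPM, and at 44.7, 74.7, 68.7 and 98.6 RPM in flat cultures 1 to 4. Flat culture 4 lay within the reaggregates and the other flat cultures lay under them. The log2 difference of *Zeb1* was 0.43 (SE 0.20, limma adjusted p = 0.116). Without flat culture 4 it was 0.60 (adjusted p = 0.0478), and without flat culture 1 it was 0.23 (adjusted p = 0.300). It was 0.75 (adjusted p = 0.0292) against the other flat cultures alone and 0.12 (adjusted p = 0.559) against the de Bruijn cultures alone. Of the 5 ratios between paralogs, that of this pair was the only one whose groups did not overlap, by a narrow gap. Per kilobase, the log2 ratio of *Zeb1* to *Zeb2* was 1.05, 1.03, 1.21, 0.87, 0.75 and 0.48 in reaggregates 1 to 6 and -0.39, 0.10, -0.46 and 0.42 in flat cultures 1 to 4. The means were 0.90 ± 0.26 (SD, n = 6) and -0.09 ± 0.42 (SD, n = 4), without overlap. This ratio was examined after the values had been seen and was not tested.

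*Snai1*, a direct repressor of *Cdh1*, lies at chr2:167363695-167368314 on the plus strand. In reaggregates it was between 54.6 and 93.0 RPM, with a median of 82.9 RPM, and flat cultures 1 to 4 held 47.7, 139, 51.6 and 102 RPM. Every reaggregate lay above both of the other flat cultures and under both de Bruijn cultures. The log2 difference of *Snai1* was 0.02 (SE 0.29, limma adjusted p = 0.966), with a 95% interval of -0.62 to 0.66. It was -0.61 (adjusted p = 0.0413) against the de Bruijn cultures alone and 0.65 (adjusted p = 0.0623) against the other flat cultures alone.

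*Snai2*, which encodes SLUG, a factor of neural crest migration, lies at chr16:14705945-14709488 on the plus strand. It was between 44.0 and 64.7 RPM in reaggregates and between 53.6 and 80.3 RPM in flat cultures. The groups overlapped, since flat culture 1 was at the level of the reaggregates. The log2 difference of *Snai2* was -0.35 (SE 0.15, limma adjusted p = 0.106), and without flat culture 1 it was -0.47 (adjusted p = 0.0363). It was -0.53 (adjusted p = 0.0165) against the de Bruijn cultures alone and -0.17 (adjusted p = 0.510) against the other flat cultures alone. The log2 ratio of *Snai1* to *Snai2* per kilobase was 0.85 ± 0.24 (SD, n = 6) in reaggregates and 0.48 ± 0.57 (SD, n = 4) in flat cultures, with overlapping groups.

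*Twist1*, needed for closure of the neural tube and for the sutures of the skull, lies at chr12:34642536-34644682 on the plus strand. Its level in reaggregates 1 to 6 was 38.7, 40.4, 21.9, 24.7, 42.7 and 43.7 RPM, and in flat cultures 1 to 4 it was 34.9, 32.7, 48.7 and 29.3 RPM. *Twist2*, its paralog in dermis and bone, lies at chr1:93698038-93744605 on the plus strand and was at 7.06, 8.03, 13.0, 14.1, 8.35 and 6.91 RPM in reaggregates 1 to 6 and at 11.1, 13.7, 9.46 and 9.11 RPM in flat cultures 1 to 4. Reaggregates 3 and 4 had the lowest *Twist1* and the highest *Twist2* of the reaggregates, and both genes overlapped between the groups. Per kilobase, the log2 ratio of *Twist1* to *Twist2* was 0.47 and 0.53 in reaggregates 3 and 4 and between 2.05 and 2.38 in the other reaggregates. The log2 difference between reaggregates and flat cultures was -0.06 (SE 0.24, limma adjusted p = 0.848) for *Twist1*. That of *Twist2* was -0.21 (SE 0.25, limma adjusted p = 0.532), and between -0.33 and -0.094 when any 1 library was left out.

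**Figure D1:**
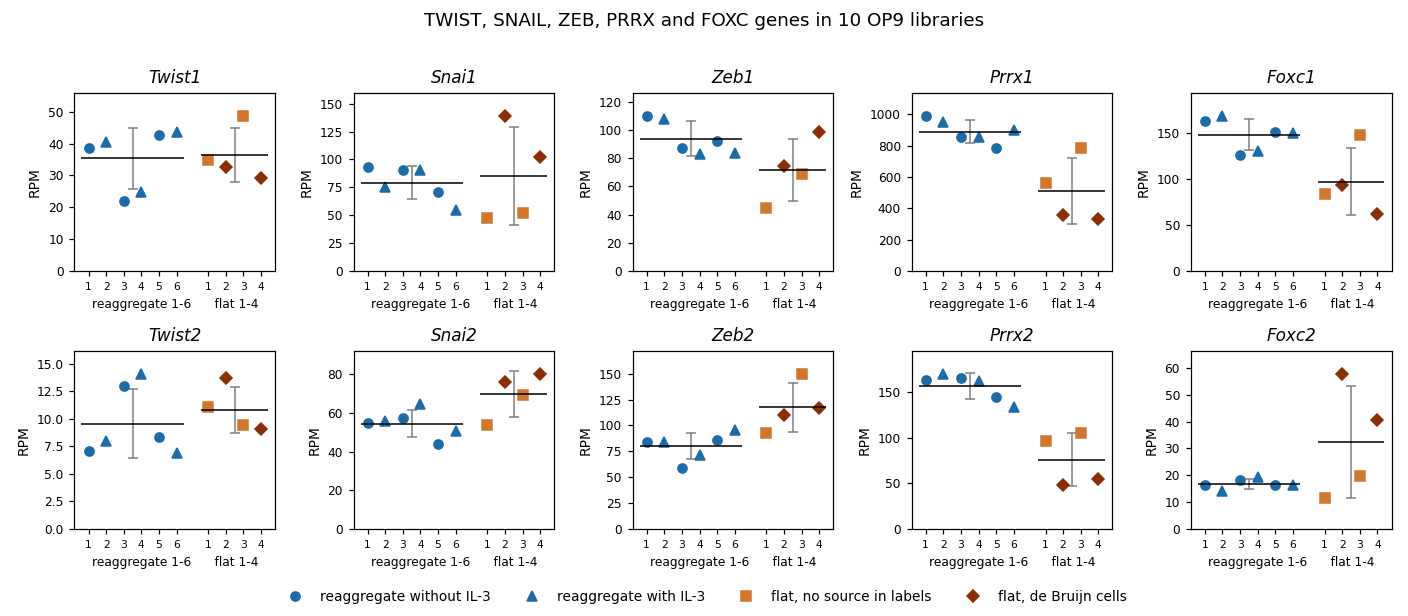
Expression in RPM (vertical axes, from 0) of the 10 genes in reaggregates 1 to 6 and flat cultures 1 to 4 (horizontal axes). Each point is 1 library, horizontal lines are group means and grey bars are ± 1 SD, and all 6 reaggregates lie above all 4 flat cultures for *Prrx1* and *Prrx2*.

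Levels of different genes were compared as RPM per kilobase of exon, with lengths from the annotation of build NCBIM37. In reaggregates *Prrx1* at 80.4 ± 6.65 and *Prrx2* at 80.2 ± 7.12 RPM per kilobase (SD, n = 6) were highest and did not differ beyond their spread. *Snai1* followed at 48.9 ± 9.28, *Foxc1* at 37.2 ± 4.28, *Snai2* at 26.9 ± 3.41 and *Twist1* at 21.9 ± 5.90 RPM per kilobase, where neighbours in this order differed by less than their summed SD, except *Foxc1* and *Snai2*. *Zeb1* at 9.68 ± 1.24, *Twist2* at 7.20 ± 2.37, *Foxc2* at 6.17 ± 0.682 and *Zeb2* at 5.21 ± 0.826 RPM per kilobase were lowest. In flat cultures *Snai1* at 52.5 ± 26.9, *Prrx1* at 46.1 ± 19.0 and *Prrx2* at 38.8 ± 14.8 RPM per kilobase (SD, n = 4) were highest and did not differ beyond their spread. These means pooled flat cultures of different source, and the order turned between sources. *Snai1* lay above *Prrx1* and *Prrx2* in the de Bruijn cultures and under both in the other flat cultures. It was between 29.4 RPM per kilobase, in flat culture 1, and 85.8 RPM per kilobase, in flat culture 2. *Zeb1* at 7.38 ± 2.28, *Zeb2* at 7.65 ± 1.55 and *Twist2* at 8.16 ± 1.58 RPM per kilobase were lowest, within their spread. With the longest transcript as length, *Prrx1* was at 136 ± 11.3 and *Prrx2* at 109 ± 9.71 RPM per kilobase in reaggregates, which differed beyond their spread, and at 78.1 ± 32.2 and 53.0 ± 20.2 RPM per kilobase in flat cultures, where *Zeb1* was at 12.3 and *Twist2* was lowest.

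IL-3 was compared within the reaggregates, 3 with it and 3 without it. None of the 10 genes was called, as for 0 of the 16933 genes tested in limma, of which 68 or 0.402% had an unadjusted p of at most 0.05. The log2 differences of the 10 genes lay between -0.23 for *Snai1* (SE 0.21, 95% interval -0.75 to 0.29) and 0.14 for *Zeb2* (SE 0.19, 95% interval -0.32 to 0.59), with adjusted p = 1 for each. With consecutive reaggregates as a block 0 genes were called, 564 had an unadjusted p of at most 0.05, and *Snai1* had -0.23 (SE 0.08, limma unadjusted p = 0.032, adjusted p = 0.982). Each consecutive pair held 1 library with IL-3 and 1 without it. In every pair *Snai1* and *Zeb1* were lower and *Snai2* and *Twist1* higher with IL-3, while each remaining gene went both ways. Some steps were very small, such as from 90.7 to 90.4 RPM for *Snai1* in reaggregates 3 and 4. The share of all genes that kept 1 direction in every pair was not computed, so no effect of IL-3 is read from these directions. Exact permutation of 3 against 3 libraries cannot go below p = 0.1.

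Within the flat cultures, none of the 10 genes was called between the sources of the cells, against 5.70% of all genes tested, and none had an adjusted p under 0.05. *Foxc2* was 49.2 ± 12.1 RPM in the de Bruijn cultures and 15.6 ± 5.94 RPM in the other flat cultures (SD, n = 2 each). The log2 difference of *Foxc2* was 1.66 (SE 0.39, limma adjusted p = 0.0767), and that of *Snai1* was 1.25 (SE 0.28, adjusted p = 0.0699). That of *Prrx2* was -0.97 (SE 0.25, adjusted p = 0.0967) and that of *Prrx1* -0.95 (SE 0.34, adjusted p = 0.177). The unadjusted p of limma was at most 0.05 for 4 of the 10 genes and for 23.0% of all genes tested. With quantile normalization *Snai1* (adjusted p = 0.0214) and *Foxc2* (adjusted p = 0.00923) were called. The median of all genes was -0.17 as deposited, -0.06 with median-ratio scaling and 0.05 with quantile normalization. Exact permutation of 2 against 2 libraries cannot go below p = 0.333. Since no label gives the source of the reaggregated cells, source and culture form cannot be told apart in the comparison with flat cultures.

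Of the 7 genes of E-proteins and ID proteins, the partners and inhibitors of TWIST, 1 rose and 3 fell. *Tcf4*, an E-protein partner, was at 94.1 ± 59.9 RPM in flat cultures (SD, n = 4) and rose to 306 ± 39.1 RPM (SD, n = 6), by 1.87 on the log2 scale (SE 0.30, limma adjusted p = 0.0014). *Id1*, an inhibitor of E-proteins, was at 168 ± 21.6 RPM in flat cultures and 62.6 ± 9.40 RPM in reaggregates, and fell by 1.42 on the log2 scale (SE 0.15, adjusted p = 0.000133). *Id2* (-1.08) and *Id4* (-1.97) also fell, while *Id3*, the most abundant in RPM, had a log2 difference of -0.25 (adjusted p = 0.310). With consecutive reaggregates averaged, 1 of the 7 genes was called down. *Id4* was at 0.136 to 0.805 RPM in reaggregates, under the floor in reaggregates 2 and 5, so its fold change depends on the 0.5 added. In flat cultures 1 to 4 it was at 1.24, 6.78, 1.25 and 8.17 RPM. Against the other flat cultures alone *Id4* was not called (-0.88, adjusted p = 0.0701).

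Of 16 corepressors of SNAIL and ZEB, 1 was called, where 7.32% of all genes tested were called up, the histone demethylase gene *Kdm1a*, which rose by 1.01 on the log2 scale (SE 0.22, limma adjusted p = 0.00679). That call was lost with quantile normalization, with consecutive reaggregates averaged and against the other flat cultures alone (0.54, adjusted p = 0.0349). Of 14 regulators of SNAIL protein stability, *Csnk1e* rose and 4 fell, among them the lysyl oxidase-like genes *Loxl3* (log2 fold change -1.88, adjusted p = 0.00162) and *Loxl2* (-1.53, adjusted p = 0.000381) and the kinase gene *Pak1* (-1.24, adjusted p = 0.0016). With consecutive reaggregates averaged 0 rose and 3 fell, and against the other flat cultures alone *Csnk1e* was not called. *Snai1* and *Snai2* themselves were not called.

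*Cdh1*, which SNAIL and ZEB repress in epithelial cells, was listed at 0 in every reaggregate and at 0.115, 0.239, 0.359 and 0.121 RPM in flat cultures 1 to 4, at or under the floor of 3 reads. Of 33 epithelial genes with values, 12 were tested, of which *Jup* and *Muc1* rose and *Krt19* and *Pkp2* fell, and none was called with consecutive reaggregates averaged. Their summed level was between 122 and 161 RPM in reaggregates and between 88.6 and 224 RPM in flat cultures, with *Tjp1* the most abundant. *Muc1* was at 0.425 to 1.79 RPM in reaggregates and at 0.115, 0, 0.719 and 0.121 RPM in flat cultures 1 to 4. It was under the floor in flat cultures 1, 2 and 4, so its fold change depends on the 0.5 added. *Krt19* was at 7.82 and 11.1 RPM in the de Bruijn cultures and at most 0.512 RPM in the other 8 libraries. *Pkp2* was at 42.6 and 41.3 RPM in the de Bruijn cultures and at no more than 10.9 RPM in the other flat cultures, within the range of the reaggregates, and of these 4 genes only *Jup* was called against the other flat cultures alone.

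Of 28 mesenchymal genes tested that rise in epithelial-mesenchymal transition, 14 rose and 1 fell in reaggregates, with a median log2 fold change of 1.14, and with consecutive reaggregates averaged 7 rose. Among the genes tested, *Fap* passed the filter on low values only through the reaggregates, so no rise is read from it. It was at 0.434 to 4.09 RPM in reaggregates and at 0, 0, 0 and 0.121 RPM in flat cultures 1 to 4. *Cdh2*, the gene of N-cadherin, was between 88.4 and 139 RPM in reaggregates, and 44.4, 0.239, 70.3 and 0.365 RPM in flat cultures 1 to 4. It was near or under the floor in the de Bruijn cultures, and its log2 fold change was 3.98 (SE 1.18, limma adjusted p = 0.0269), but 0.91 (adjusted p = 0.0302) against the other flat cultures alone, without a call. *Postn* (6.69) and *Col3a1* (4.11) rose as well, by 4.55 and 2.10 against the other flat cultures alone, *S100a4* fell (-2.39), *Vim* had a log2 difference of -0.54 (adjusted p = 0.0787), and *Fn1*, the most abundant in RPM, had 0.73 (adjusted p = 0.234).

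Of 29 other transcription factors of mesenchyme and skull, 10 rose and none fell, with a median of 0.45, and 6 rose with consecutive reaggregates averaged. *Osr2* (log2 fold change 2.71), *Sox4* (2.37) and *Eya1* (1.97) rose furthest, of which *Osr2* was not called against the other flat cultures alone. None of 7 related forkhead and homeobox genes tested was called, with *Foxp1* the most abundant. Of 12 osteoblast genes *Dmp1* rose (3.87) and none fell, as with consecutive reaggregates averaged, and *Spp1* was the most abundant. *Dmp1* was at 0.115, 0, 2.16 and 0 RPM in flat cultures 1 to 4, under the floor in 3 of them, so its fold change depends on the 0.5 added, and against the other flat cultures alone it was 3.19 (adjusted p = 0.0035). Of 10 niche genes linked to FOXC1, *Vcam1* (1.12) and *Angpt1* (1.27) rose and 4 fell, among them *Pparg* (-1.67), *Csf1* (-1.47) and *Cebpa* (-1.36), and none was called with consecutive reaggregates averaged. *Pparg* was at 395 and 295 RPM in the de Bruijn cultures, 49.4 and 58.1 RPM in the other flat cultures and 36.0 to 46.7 RPM in reaggregates, and none of *Pparg*, *Csf1*, *Cebpa* and *Angpt1* was called against the other flat cultures alone, where *Angpt1* had 0.33 (adjusted p = 0.508). *Cxcl12*, the most abundant of them, was at 4560 and 3990 RPM in the de Bruijn cultures, 125 and 662 RPM in the other flat cultures and between 546 and 2300 RPM in reaggregates. Of 18 upstream signals, *Tgfb3* (2.07), *Ctnnb1* (1.31) and *Tgfb2* (1.06) rose and *Hmga2* fell (-1.55), and with consecutive reaggregates averaged 2 rose and 0 fell. Against the other flat cultures alone neither *Hmga2* (-0.74, adjusted p = 0.109) nor *Tgfb2* was called.

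**Figure D2:**
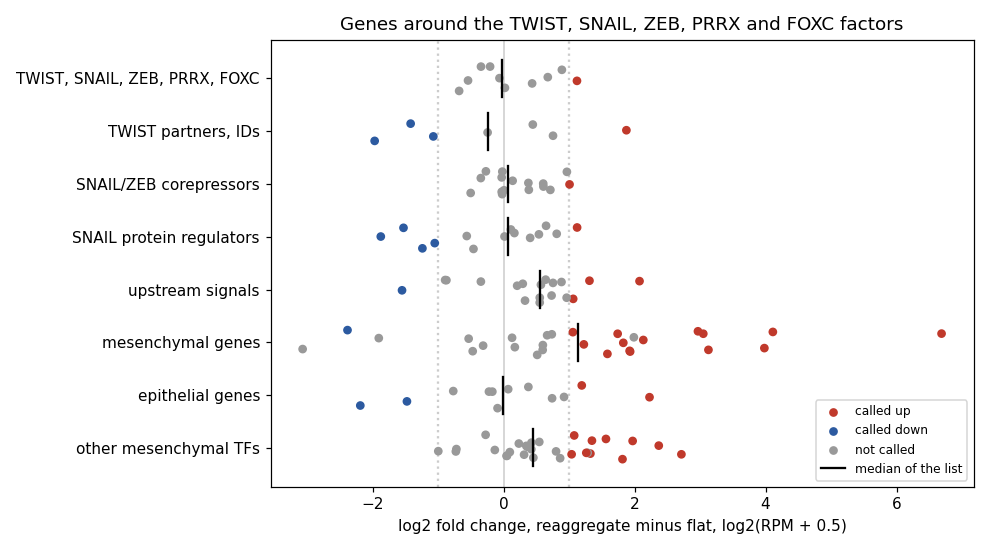
Log2 fold change of reaggregates minus flat cultures on log2(RPM + 0.5) (horizontal axis) for each gene tested in 8 lists (vertical axis), where each point is 1 gene, the vertical scatter has no meaning, colours mark calls, dotted lines mark a fold change of 2 and black bars are list medians. The 10 factors lie between -0.68 and 1.12, with *Prrx2* the only call.

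Other gene lists were examined beside these factors, and their part in the results was not tested. Of 17 proliferation genes 16 fell, *Rrm2* the furthest (log2 fold change -3.14), *Aurka* (-2.75) and *Ccnb1* (-2.70) next, and *Top2a* was the most abundant. The summed level of these genes was between 438 and 625 RPM in reaggregates and between 1280 and 2818 RPM in flat cultures. Of 14 immediate early genes 7 rose, with *Fosb* (4.19), *Atf3* (4.08) and *Nr4a1* (3.98) furthest and *Egr1* the most abundant, and 3 rose with consecutive reaggregates averaged. Dissociation before RNA extraction is described for reaggregates only, so it cannot be told apart from culture form, and its part was not tested. Flat culture 3, which was nearest to the reaggregates in *Prrx1* and *Foxc1*, had a summed immediate early level of 3470 RPM, against 629, 1109 and 1253 RPM in flat cultures 1, 2 and 4 and 2867 to 3681 RPM in reaggregates. Of 11 stromal markers 4 rose, among them *Col1a1* (1.93), *Col1a2* (1.83) and *Pdgfrb* (1.74), 5 had a difference above 0 and the median was -0.01, and with consecutive reaggregates averaged 2 rose. Of 12 blood cell markers with values, 6 were tested and *Itga2b* rose (1.87), while *Ptprc*, the gene of CD45, was listed at 0 in every library and the sum, in which *Lyz2* had the highest mean, was between 16.7 and 60.1 RPM. Of 10 endothelial markers 4 were tested, with a sum of at most 7.81 RPM in any library and *Cdh5*, the gene of VE-cadherin, at most 0.00702 RPM. *Vwf* was called up (1.88) but passed the filter on low values only through the reaggregates. It was at 0.46, 0.119, 0.12 and 0.364 RPM in flat cultures 1 to 4 and at 0.762 to 5.64 RPM in reaggregates, so no rise is read from that call. Neither *Itga2b* nor *Vwf* was called with consecutive reaggregates averaged or against the other flat cultures alone, where *Fosb* and *Col1a2* were not called either.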

How the data were processed

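RNA-seq of 10 OP9 libraries was analysed from 1 expression table. The authors aligned reads to NCBIM37/mm9 with TopHat 1.2.0, summed them per Ensembl gene, shared out reads with several matches, and deposited RPM, scaled to the reads on genes of each library. The deposited table also holds the authors' log2 fold change and adjusted p-value from DESeq for reaggregates against flat cultures, which were not used. Depth was taken from the commonest RPM value above 0. Between 53.9% and 68.6% of values were within 0.1 read of a whole number, and read numbers were not recovered for a count test.

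Expression was compared as log2(RPM + 0.5) where a gene exceeded 0.5 RPM in 1 or more libraries, using limma 3.58.1 and R 4.3.3. The fit was a linear model, empirical Bayes with a mean-variance trend and Benjamini-Hochberg adjustment over 16933 genes. Its code was tested on simulated data with independent libraries. These held neither close consecutive reaggregates nor flat cultures of different source, so error rates in this design were not tested. Single genes were also compared by exact two-sided permutation of the libraries, each taken as separate. The labels do not say that replicate numbers of reaggregates and flat cultures mark a shared culture. Exon lengths came from the Ensembl annotation of NCBIM37, a later release than the authors used, and promoters from RefSeq GRCm38.p6. Python 3.11.15 and matplotlib 3.10.9 were used for tables and plots.

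The 10 factors and the gene lists were chosen with earlier results of these data known. Named genes were the 10 factors, *Cdh1*, *Cdh2* and *Vim*, up to 3 genes called in each direction with the largest absolute log2 fold change and the gene of highest mean RPM in each list, and the 3 genes with the profile nearest to a called factor. *Gm13476*, *Ptprc*, *Cdh5* and *Fap* were named after their values were seen. Alternatives varied the pseudocount, filter, scaling, trend, libraries, block and gene length.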

Additional observations from a re-analysis of the deposited data

Results flagged for a closer look

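In the RPM values of the 10 genes and the log2 ratios of the 5 pairs of paralogs, 30 sets of 4 or 6 libraries were examined for a single library far from the others of its group, and 0 were found, where chance gives about 1 in 20 for independent libraries. The rule cannot flag libraries that deviate together, as reaggregates 3 and 4 did for *Twist1*, so no conclusion is drawn from the 0.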

How the results depend on the processing

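Over the alternatives to the comparison of reaggregates with flat cultures, 207 of 230 values of the 10 factors kept their direction and their side of the call. *Prrx2* lost its call in 6 alternatives, with log2 fold changes of 0.93 and 0.99 without flat culture 2 or 4, 0.63 against the other flat cultures, 1.13 with only the reaggregates without IL-3 (adjusted p = 0.0656), 1.11 with only those with IL-3 (adjusted p = 0.0789) and 1.12 with consecutive reaggregates averaged. *Prrx1* was called without flat culture 3 (1.12) and against the de Bruijn cultures (1.36), and *Foxc2* without flat culture 1 (-1.09) and against the de Bruijn cultures (-1.51). The direction turned for *Snai1* with quantile normalization (-0.0042), with only the reaggregates with IL-3 (-0.10) and against the de Bruijn cultures (-0.61), for *Twist1* against the de Bruijn cultures (0.14) and for *Foxc2* against the other flat cultures (0.15). Leaving out 1 library at a time gave -0.21 to 0.30 for *Snai1* and -0.16 to 0.082 for *Twist1*, where the direction turned without reaggregate 1, 3 or 4 or flat culture 1 or 3 for *Snai1* and without reaggregate 3 or 4 or flat culture 3 for *Twist1*. The cause was not tested.

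Of all genes, 1239 were called up and 1106 down. Both counts were lower with only the reaggregates without IL-3 (345 and 474), with only those with IL-3 (277 and 360) and with consecutive reaggregates averaged (312 and 429), where fewer samples were compared and 0 of the 10 factors were called. They were 2579 and 1775 against the de Bruijn cultures, with 2 of the factors up and 1 down, and 627 up and 1044 down against the other flat cultures, with 0 of the factors up. Leaving out 1 library gave 766 to 2121 genes up and 815 to 1522 down, with 0 to 2 of the factors up and 0 to 1 down. With the replicate block, 1885 genes were called up and 1154 down, and *Prrx2* kept its call (adjusted p = 0.0171). The deviations of libraries of the same number had an r across genes of -0.04, -0.21, 0.07 and 0.15 for numbers 1 to 4. Flat cultures also differed by source, and consecutive reaggregates resembled each other. A low r therefore cannot tell whether the numbers mark a shared culture or batch.

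Between flat cultures of different source, 309 genes were called up and 656 down, 32.0% up. The counts were 70 and 134 without the filter, 478 and 1133 with the stricter filter and 791 and 972 with quantile normalization, 44.9% up, and *Snai1* and *Foxc2*, 2 of the factors, were called up in the last 2 settings. Leaving out any 1 flat culture gave 0 genes up and 0 down (limma; 1784 to 4137 genes had an unadjusted p no higher than 0.05), where a lone library is assumed to vary like the others. For IL-3, 0 genes were called in limma with a fold change of at least 2 in any of 14 alternatives.

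With the longest transcript as length, levels in reaggregates and flat cultures were 16.2 and 12.3 for *Zeb1*, 8.79 and 12.9 for *Zeb2*, 136 and 78.1 for *Prrx1*, and 109 and 53.0 RPM per kilobase for *Prrx2*. This and leaving out libraries were added for the paralog ratios after seeing the data. A depth of 7.35 to 9.43 M reads limits genes near the floor, such as *Cdh1*, and not the 10 factors. The small number of libraries limits each comparison. The unlabelled source of the reaggregates and their dissociation before RNA extraction limit the comparison with flat cultures. The closeness of consecutive reaggregates limits that comparison and the one of IL-3.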
